A study of Mus musculus with 16 samples.

Results

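The tricarboxylic acid (TCA) cycle enzymes examined in mouse liver were encoded by 9 genes, Cs, Idh2, Idh3a, Idh3b, Ogdh, Sucla2, Suclg1, Fh1 and Mdh2. They were chosen by gene symbol, and all 9 were found among the 46078 genes of the count table and all passed the filter on low counts that 15075 genes passed. The cycle oxidises the acetyl group of acetyl-CoA to carbon dioxide in the mitochondrial matrix and passes the electrons to NADH and to ubiquinone. Its intermediates also leave and enter: citrate is exported for fatty acid synthesis in the fed liver, and malate and oxaloacetate serve glucose production in the fasted liver. The genes examined encode citrate synthase (Cs), subunits or forms of isocitrate dehydrogenase (Idh3a, Idh3b, Idh2), the E1 subunit of the oxoglutarate dehydrogenase complex (Ogdh), subunits of succinyl-CoA synthetase (Suclg1, Sucla2), fumarase (Fh1) and mitochondrial malate dehydrogenase (Mdh2).

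Poly(A)-enriched liver RNA was sequenced from mice kept for 16 weeks on a diet with 60% of its calories from fat (HFD) or on its control (CD) and killed with free access to food (fed) or after a 16 h fast (fast). The labels give the strain as C56B6/J for all samples, the study's methods describe C57BL6/J mice, and the animals were male with no transgene or deletion named. Each of the 4 groups (CD fed, CD fast, HFD fed and HFD fast) held 4 libraries. The table held between 41364448 and 57583153 counts per library, so a total of 3 counts in a library corresponded to between 0.0536 and 0.0767 CPM, the count of a gene relative to the scaled total of its library. The 9 genes lay far above that level, with between 1175 counts (Idh3a) and 18699 counts (Fh1) in a library. The scaling of CPM used edgeR's TMM factors, and a gene was called changed where the adjusted p of edgeR's quasi-likelihood test, over all 15075 genes, was under 0.05. The 6 hepatocyte marker genes together reached between 69458 and 136692 CPM in every library, and in the fasted HFD livers they lay below the fed HFD livers without overlap (69458 to 100769 against 107472 to 136692 CPM).

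Per kilobase of all annotated exons joined, a scale on which genes can be compared, Fh1 had the highest mean level of the 9 genes in 3 of the 4 groups and Idh3a had the lowest in all 4. In CD fed livers Fh1 was at 56.2 ± 3.9 CPM per kb (SD, n = 4), Mdh2 at 50.9 ± 1.8 and Idh3b at 48.3 ± 1.8, where Fh1 overlapped Mdh2 and Mdh2 overlapped Idh3b. Suclg1 (42.9 ± 2.3) lay below Idh3b without overlap, and Suclg1, Ogdh (40.4 ± 1.4) and Idh2 (37.3 ± 4.9) each overlapped the next gene in the order. Sucla2 (32.0 ± 2.2), Cs (26.1 ± 2.4) and Idh3a (5.17 ± 0.47) closed the order without overlap between them. In CD fast livers the order at the top was Fh1 (99.0 ± 37.2), Mdh2 (63.0 ± 8.0), Ogdh (61.6 ± 13.7), Suclg1 (61.0 ± 3.4), Idh2 (56.1 ± 11.6) and Idh3b (50.0 ± 2.4), all overlapping their neighbours. In HFD fast livers Idh2 (55.7 ± 7.4), Suclg1 (55.5 ± 3.7), Fh1 (55.2 ± 11) and Mdh2 (54.0 ± 2.6) were within each other's spread. On this scale the sequence Sucla2, then Cs, then Idh3a at the low end, with no overlap between neighbours, held in each of the 4 groups. The order depended on the length used. Per kilobase of the longest transcript Mdh2 had the highest mean in all 4 groups (113 ± 4.0 CPM per kb in CD fed, against 72.3 ± 5.0 for Fh1), and in CD fed livers Sucla2 (57.3 ± 3.9) stood above Idh2 (53.9 ± 7.0), Ogdh (53.5 ± 1.8) and Cs (50.1 ± 4.6). Cs was next to last and Idh3a last by their means in all 4 groups with either length.

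A 16 h fast raised 6 of the 9 genes in CD livers, Idh2, Ogdh, Sucla2, Suclg1, Fh1 and Mdh2, by 1.22-fold to 1.76-fold, and lowered 1, Cs, by 29.2%. The same fast in HFD livers gave no call among the 9. The 7 calls of 9 in CD stand beside 25.2% of all genes tested, with 13.7% of genes called higher and 11.5% called lower. The fed and fasted CD libraries did not overlap for 6 of the 9 genes (Cs, Ogdh, Sucla2, Suclg1, Fh1 and Mdh2), against 25.4% of all genes. The median log2 fold change was 0.34 over the 9 genes and -0.01 over all genes. In HFD livers 0 of the 9 genes were called by edgeR, against 8.86% of all genes, with 2 at an unadjusted p under 0.05 (Idh3a and Suclg1). DESeq2 called both of these, against 13.2% of all genes by that tool, and limma-voom called 0, against 8.56%. The fed and fasted HFD libraries did not overlap for 3 of the 9 (Idh3a, Ogdh and Suclg1), against 16.7% of all genes, and the median log2 fold change of the 9 was -0.05.

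**Figure D1:**
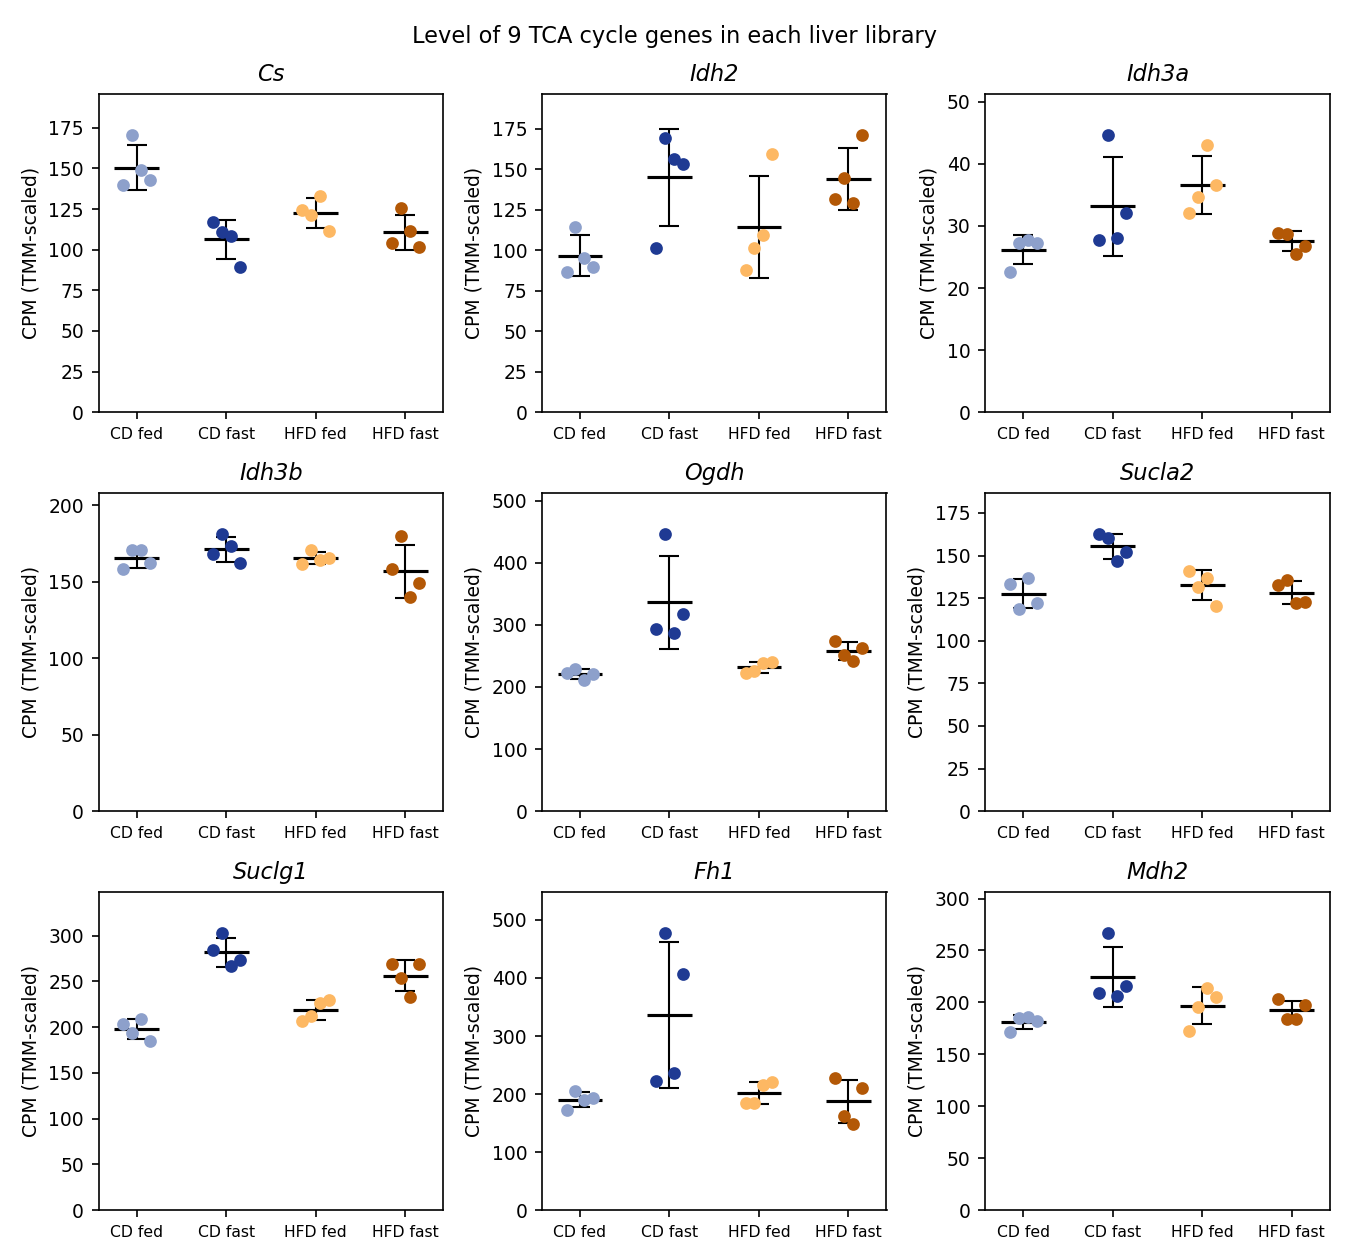
TMM-scaled CPM (vertical axes, from 0) of the 9 TCA cycle genes in each of the 16 liver libraries by group, where points are libraries, the horizontal line is the mean and bars are the SD (n = 4). In CD livers the fasted points lie below the fed points for Cs and above them for Ogdh, Sucla2, Suclg1, Fh1 and Mdh2, and CD fast replicate 2 is the highest point of its group for 7 of the 9 genes.

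The summed level of the 9 genes was 1312 to 1415 CPM in the 4 CD fed libraries, 1587 to 2159 in CD fast, 1334 to 1489 in HFD fed and 1338 to 1530 in HFD fast. On this TMM scale CD fast lay above the 3 other groups without overlap. The TMM factors were 0.929 to 0.975 in CD fast and 1.01 to 1.13 in HFD fast, so the separation depends on the scaling. Scaled by total counts, the summed CD fast levels lay above CD fed but overlapped HFD fed and HFD fast. In whole liver, more or fewer cells of a type and more or less RNA per cell cannot be told apart. With fasting in CD, markers of sinusoidal endothelium moved as well: the summed level of 5 genes, all detected, was 202 to 228 CPM in CD fed and 159 to 191 CPM in CD fast, and 3 of the 5 were called lower. The pancreas list also fell, from 14.0 to 23.2 CPM in CD fed to 6.04 to 11.9 CPM in CD fast, with 1 of its 5 genes above a mean of 3 counts and Cpa1, Pnlip and Cel at no more than 3 counts in any library. The part of these lists in the result was not tested. Summed levels of Kupffer cell, stellate cell, cholangiocyte, lymphocyte, neutrophil, erythrocyte, adipose and muscle markers and of the 13 mitochondrially encoded mRNAs overlapped between fed and fasted CD livers, as did those of hepatocyte markers (102690 to 135501 CPM in CD fed, 87069 to 108085 in CD fast). Among these lists 1 of 5 Kupffer cell, 1 of 5 stellate cell, 1 of 5 erythrocyte and 1 of 6 hepatocyte markers were called lower, and 1 of the 13 mitochondrial mRNAs higher. Of all genes tested, 11.5% were called lower and 13.7% higher in this comparison.

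Citrate synthase condenses acetyl-CoA with oxaloacetate and is the entry to the cycle. Cs was at 140, 171, 149 and 143 CPM in the CD fed libraries and at 117, 111, 109 and 89.4 CPM in CD fast. Every fasted CD library lay below every fed one, and Cs was the only member of the 9 to fall with fasting in CD. The log2 fold change was -0.50 (SE 0.10, 95% interval -0.71 to -0.29, adjusted p 0.00193 by edgeR), and the call held in 16 of 16 fits that left out a library. In HFD livers Cs was at 124, 121, 133 and 111 CPM when fed and 104, 125, 112 and 102 CPM when fasted, which overlapped. The log2 change there was -0.15 (SE 0.10, interval -0.35 to 0.06, adjusted p 0.363).

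Mitochondrial malate dehydrogenase regenerates oxaloacetate, the partner of acetyl-CoA in the citrate synthase step. Mdh2 was at 172, 185, 185 and 182 CPM in CD fed and at 209, 267, 206 and 215 CPM in CD fast. The groups did not overlap, and CD fast replicate 2 stood apart above the other 3 fasted libraries. The log2 fold change was 0.31 (SE 0.09, interval 0.12 to 0.50, edgeR adjusted p 0.0204). The call was lost without CD fast replicate 2 (0.21, adjusted p 0.0651) and without CD fed replicate 1 (0.28, adjusted p 0.0585). It was also lost with total count scaling (adjusted p 0.0515), no count filter (0.0505) and only the groups compared (0.0508). In HFD livers Mdh2 was at 173, 196, 214 and 205 CPM when fed and at 203, 184, 184 and 197 CPM when fasted. These overlapped, with a log2 change of -0.03 (interval -0.22 to 0.16, adjusted p 0.849).

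Isocitrate dehydrogenase has an NAD-dependent form, whose catalytic alpha subunit is encoded by Idh3a and whose beta subunit is encoded by Idh3b, and an NADP-dependent mitochondrial form, encoded by Idh2. Idh2 was at 86.7, 115, 95.3 and 89.6 CPM in CD fed and at 102, 170, 156 and 153 CPM in CD fast. Of the fasted libraries, CD fast replicate 1 lay within the fed range and the other 3 lay above it. The log2 fold change was 0.59 (SE 0.18, interval 0.20 to 0.97, edgeR adjusted p 0.0267). The call held in 10 of 16 fits that left out a library. It was lost without CD fed replicate 1 (adjusted p 0.0724), 3 (0.0557) or 4 (0.0666) and without CD fast replicate 2 (0.0811), 3 (0.0582) or 4 (0.0602), with log2 changes of 0.50 to 0.58. In HFD livers Idh2 was at 87.6, 101, 109 and 160 CPM when fed and at 131, 144, 129 and 171 CPM when fasted. HFD fed replicate 4 lay among the fasted libraries. The log2 change was 0.33 (interval -0.05 to 0.71, adjusted p 0.265), and without HFD fed replicate 4 it was 0.53 and passed the test (adjusted p 0.0488).

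Idh3a was at 22.6, 27.2, 27.7 and 27.2 CPM in CD fed and at 27.7, 44.6, 28.1 and 32.1 CPM in CD fast. The groups met at their edges, and CD fast replicate 2 was the highest library. The log2 change of 0.34 (SE 0.13, interval 0.05 to 0.62) did not pass the test (adjusted p 0.0763), and it did pass without CD fast replicate 1 (0.42, adjusted p 0.0438) or 3 (0.40, adjusted p 0.0445). Without CD fast replicate 2 it was 0.16 (adjusted p 0.286). In HFD livers the order was the other way round. Idh3a was at 32.1, 34.6, 43.0 and 36.7 CPM in HFD fed and at 28.9, 28.8, 25.5 and 26.8 CPM in HFD fast, with no overlap. That log2 change of -0.41 (SE 0.13, interval -0.70 to -0.13) had an edgeR adjusted p of 0.0675, and without CD fast replicate 2, which is in neither group but enters the estimate of the spread, it passed at 0.0161.

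Idh3b was not called in any comparison. It was at 158, 171, 171 and 162 CPM in CD fed, 168, 181, 173 and 162 CPM in CD fast, 162, 171, 164 and 166 CPM in HFD fed, and 158, 180, 140 and 149 CPM in HFD fast. All 4 groups overlapped. The log2 change with fasting was 0.05 in CD (interval -0.11 to 0.21) and -0.08 in HFD (interval -0.24 to 0.08), with edgeR adjusted p of 0.673 and 0.534. Exons of Idh3b share 5 bases with Nop56 on the other strand, and the strand setting of the counting step is not given in the sources used here.

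The oxoglutarate dehydrogenase complex turns 2-oxoglutarate into succinyl-CoA, and Ogdh encodes its E1 subunit, which carries out the decarboxylation. Ogdh was at 223, 229, 211 and 221 CPM in CD fed and at 293, 446, 287 and 318 CPM in CD fast. All fasted CD libraries lay above all fed ones, with CD fast replicate 2 highest. The log2 fold change was 0.61 (SE 0.11, interval 0.37 to 0.85, edgeR adjusted p 0.00143) and it held in 16 of 16 fits that left out a library. Without CD fast replicate 2 it was 0.44. In HFD livers Ogdh was at 222, 226, 239 and 240 CPM when fed and at 275, 251, 242 and 262 CPM when fasted. The groups did not overlap, but the log2 change of 0.15 (interval -0.09 to 0.39) had an adjusted p of 0.418.

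Succinyl-CoA synthetase makes succinate together with ATP or GTP. Suclg1 encodes the alpha subunit common to both forms of the enzyme, and Sucla2 encodes the beta subunit of the ADP-forming type. Suclg1 was at 204, 194, 209 and 185 CPM in CD fed and at 284, 303, 267 and 273 CPM in CD fast, which did not overlap. Its log2 fold change of 0.51 (SE 0.07, interval 0.35 to 0.66) had the lowest adjusted p of the 9 genes in this comparison, 0.000190 by edgeR. In HFD livers Suclg1 was at 207, 212, 226 and 229 CPM when fed and at 269, 253, 233 and 269 CPM when fasted. Again every fasted library was above every fed one, and the log2 change was 0.23 (SE 0.07, interval 0.07 to 0.38, adjusted p 0.0613). DESeq2 placed this change past the threshold (adjusted p 0.0160), as did edgeR with total count scaling (0.0485) or with only genes of a mean of at least 100 counts (0.0448).

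Sucla2 was at 133, 119, 137 and 122 CPM in CD fed and at 163, 160, 147 and 152 CPM in CD fast. The groups did not overlap, and the log2 fold change was 0.28 (SE 0.07, interval 0.13 to 0.43, edgeR adjusted p 0.00942), called in 16 of 16 fits without a library. In HFD livers Sucla2 was at 141, 132, 137 and 121 CPM when fed and at 133, 135, 122 and 123 CPM when fasted. These overlapped, with a log2 change of -0.05 (interval -0.20 to 0.10, adjusted p 0.715).

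Fumarase hydrates fumarate to malate, and Fh1 is the mouse gene for it. Fh1 was at 173, 205, 191 and 193 CPM in CD fed and at 223, 477, 236 and 407 CPM in CD fast. Every fasted library was above the fed ones, but CD fast replicates 2 and 4 were far above replicates 1 and 3, and the coefficient of variation in that group was 37.6%, the highest of the 9 genes in any group. The log2 fold change of 0.82 (SE 0.21, interval 0.37 to 1.26, edgeR adjusted p 0.0103) was the largest of the 9. It was 0.60 without CD fast replicate 2 (adjusted p 0.0400) and was called in 16 of 16 such fits. In HFD livers Fh1 was at 185, 185, 216 and 221 CPM when fed and at 228, 163, 149 and 210 CPM when fasted. HFD fast replicates 2 and 3 lay below the fed range and replicate 1 above it. The log2 change was -0.11 (interval -0.55 to 0.33, adjusted p 0.783).

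**Figure D2:**
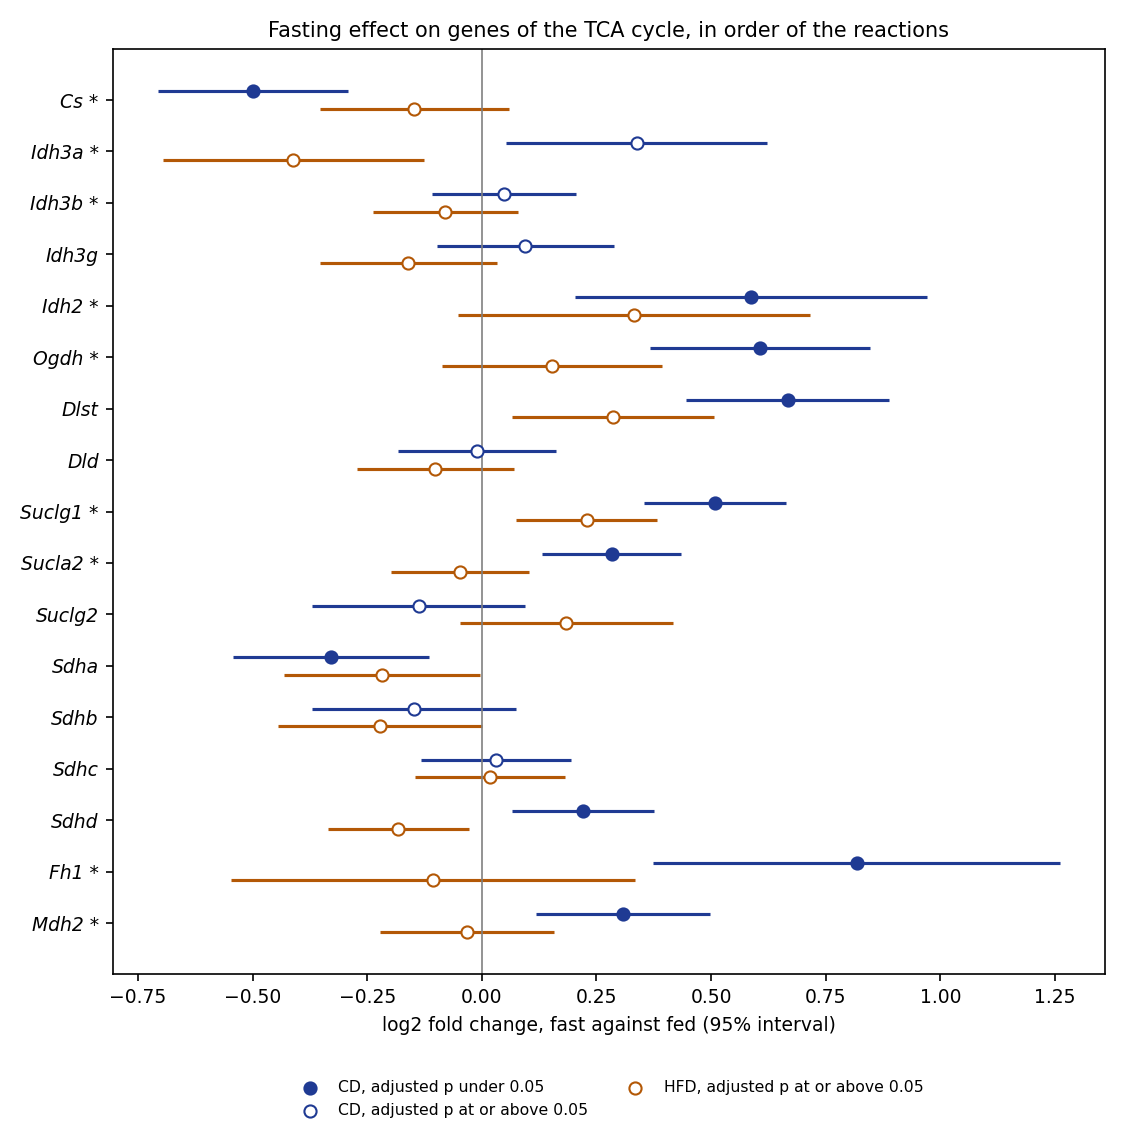
Log2 fold change of fasted against fed livers (horizontal axis, lines are 95% intervals) for 17 genes of the TCA cycle in the order of the reactions, in CD (blue) and HFD (orange), where filled points have an adjusted p under 0.05 and an asterisk marks the 9 genes described one by one. In CD, filled points are above 0 for Idh2, Ogdh, Dlst, Suclg1, Sucla2, Sdhd, Fh1 and Mdh2 and below 0 for Cs and Sdha, and no point is filled in HFD.

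The difference between the fasting effects in the 2 diets was tested directly as the interaction of diet and fasting. Of the 9 genes only Idh3a passed, with a log2 difference of -0.75 (SE 0.19, interval -1.15 to -0.35, edgeR adjusted p 0.0474), against 2.59% of all genes. Its fasting change was positive in CD and negative in HFD, and neither change passed alone in the main edgeR fit. The change in HFD was called by DESeq2 and by edgeR with only the groups compared. The interaction was under the threshold in only 2 of 16 fits that left out a library, those without CD fast replicate 1 or 3. In the other 14 fits its adjusted p was 0.0521 to 0.0996, and the log2 difference over the 16 fits was -0.83 to -0.57. It also missed the threshold with limma-voom (adjusted p 0.0546), total count scaling (0.0642), no count filter (0.0577) and the fit with the replicate number as a block (0.0513).

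For 6 more of the 9 genes the interaction had an unadjusted p under 0.05 but did not pass the adjustment. The log2 difference was -0.92 for Fh1 (interval -1.55 to -0.30, adjusted p 0.100), -0.45 for Ogdh (-0.79 to -0.11, adjusted p 0.130), -0.34 for Mdh2 (-0.61 to -0.07, adjusted p 0.148), -0.33 for Sucla2 (-0.54 to -0.12, adjusted p 0.0890) and -0.28 for Suclg1 (-0.50 to -0.06, adjusted p 0.144). For Cs it was positive, 0.35 (0.06 to 0.64, adjusted p 0.165). Over the 16 fits that left out a library, the Ogdh difference was -0.53 to -0.29. Thus 8 of the 9 differences were negative, with a median of -0.33 against -0.0015 over all genes, and Cs, the gene that fell with fasting in CD, had the opposite sign. The 9 differences come from the same 16 libraries, so their signs are not independent. DESeq2 called 4 of the 9 (Fh1, Idh3a, Sucla2 and Suclg1), against 7.16% of all genes by that tool, and limma-voom called 0, against 2.37%. None of the fasting changes that passed in CD and not in HFD is therefore shown to differ between the diets by the edgeR test.

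Averaged over both diets, fasting changed 4 of the 9 genes, against 28.8% of all genes. Suclg1 (log2 0.37, SE 0.05), Ogdh (0.38, SE 0.08) and Idh2 (0.46, SE 0.13) were higher and Cs (-0.32, SE 0.07) was lower, with edgeR adjusted p of 0.000115, 0.00264, 0.0141 and 0.00282. Each of these 4 calls held in 16 of 16 fits without a library.

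HFD raised Idh3a in fed livers, by 1.40-fold, and no other of the 9 genes was called there. In fasted livers HFD gave lower levels of Fh1, by 44.2%, and of Sucla2, by 17.5%. The 1 call of 9 in fed livers stands beside 7.5% of all genes and the 2 calls of 9 in fasted livers beside 7.7%. The CD and HFD libraries did not overlap for 2 of the 9 genes when fed (Cs and Idh3a), against 15.7% of all genes, and for 3 of the 9 when fasted (Ogdh, Sucla2 and Mdh2), against 14.0%. The HFD comparison in fasted livers uses the same CD fast libraries as the fasting comparison in CD, and the one in fed livers the same CD fed libraries, so these comparisons are not independent. Averaged over feeding states, edgeR called 0 of the 9 for HFD, against 12.0% of all genes. Fh1 and Sucla2 had an unadjusted p under 0.05 there, and the median log2 change was -0.06. DESeq2 and limma-voom also called 0, against 16.1% and 11.5% of all genes by those tools.

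In fed livers the Idh3a levels given above did not overlap between the diets (22.6 to 27.7 CPM in CD, 32.1 to 43.0 CPM in HFD). The log2 fold change was 0.48 (SE 0.13, interval 0.20 to 0.77, edgeR adjusted p 0.0397). The call was lost without any of the 4 CD fed libraries or HFD fed replicate 2, 3 or 4, with adjusted p of 0.0595 to 0.130 and log2 changes of 0.40 to 0.51. Cs was lower in every HFD fed library than in every CD fed one, with a log2 change of -0.30 (SE 0.10, interval -0.50 to -0.09, adjusted p 0.0734), and DESeq2 placed it past the threshold (adjusted p 0.0394). The other 7 genes overlapped, with log2 changes from 0.00 (Idh3b) to 0.25 (Idh2), and the Idh2 value was 0.043 without HFD fed replicate 4.

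In fasted livers the log2 change of Fh1 with HFD was -0.84 (SE 0.21, interval -1.29 to -0.40, edgeR adjusted p 0.0246), although HFD fast replicate 1, at 228 CPM, was above CD fast replicate 1, at 223 CPM. The call was lost without CD fast replicate 2 (-0.62, adjusted p 0.0695), CD fast replicate 4 (-0.73, adjusted p 0.0560), HFD fast replicate 2 (-0.78, adjusted p 0.0517) or HFD fast replicate 3 (-0.75, adjusted p 0.0757). Sucla2 did not overlap between the diets and changed by -0.28 (SE 0.07, interval -0.43 to -0.13, adjusted p 0.0279). That call was lost without CD fast replicate 1 (adjusted p 0.0688) or 2 (0.0628) or HFD fast replicate 3 (0.0848) or 4 (0.0820). With only the 2 groups compared in the fit, neither was called (adjusted p 0.109 for Fh1 and 0.0902 for Sucla2). That fit called 0.623% of all genes, against 7.7% in the main fit. Ogdh did not overlap either (-0.38, interval -0.62 to -0.14, adjusted p 0.0502). It passed the test without CD fast replicate 1 (adjusted p 0.0429) or 3 (0.0321), with DESeq2 (0.0136) and with RLE size factors (0.0475), and was at -0.22 without CD fast replicate 2. Mdh2 did not overlap and did not pass (-0.22, interval -0.41 to -0.03, adjusted p 0.131), and was at -0.13 without CD fast replicate 2 (adjusted p 0.332).

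Scaling bears on the HFD comparison in fasted livers. Scaling by total counts instead of TMM moved the median log2 change of all genes by 0.16 there, and the share of higher genes among those called went from 39.6% to 88.1%. On that scale Fh1 was at -0.67 (adjusted p 0.0442) and Sucla2 at -0.12 (adjusted p 0.232). In the same comparison the sinusoidal endothelium markers were at 194 to 242 CPM in HFD fast against 159 to 191 in CD fast, with 3 of 5 called higher. The stellate cell markers were at 205 to 299 CPM against 114 to 190, with 1 of 5 called higher. Adipose markers were at 2.08 to 70.2 CPM in HFD fast and 1.61 to 6.95 CPM in CD fast, which overlapped. Summed levels of hepatocyte and erythrocyte markers and of mitochondrially encoded mRNAs overlapped too. Of these, 1 of 6 hepatocyte markers was called lower, 1 of 5 erythrocyte markers higher and 2 of 13 mitochondrial mRNAs lower. These marker calls stand beside 7.7% of all genes called in either direction. The part of these lists in the lower Fh1 and Sucla2 levels was not tested.

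**Figure D3:**
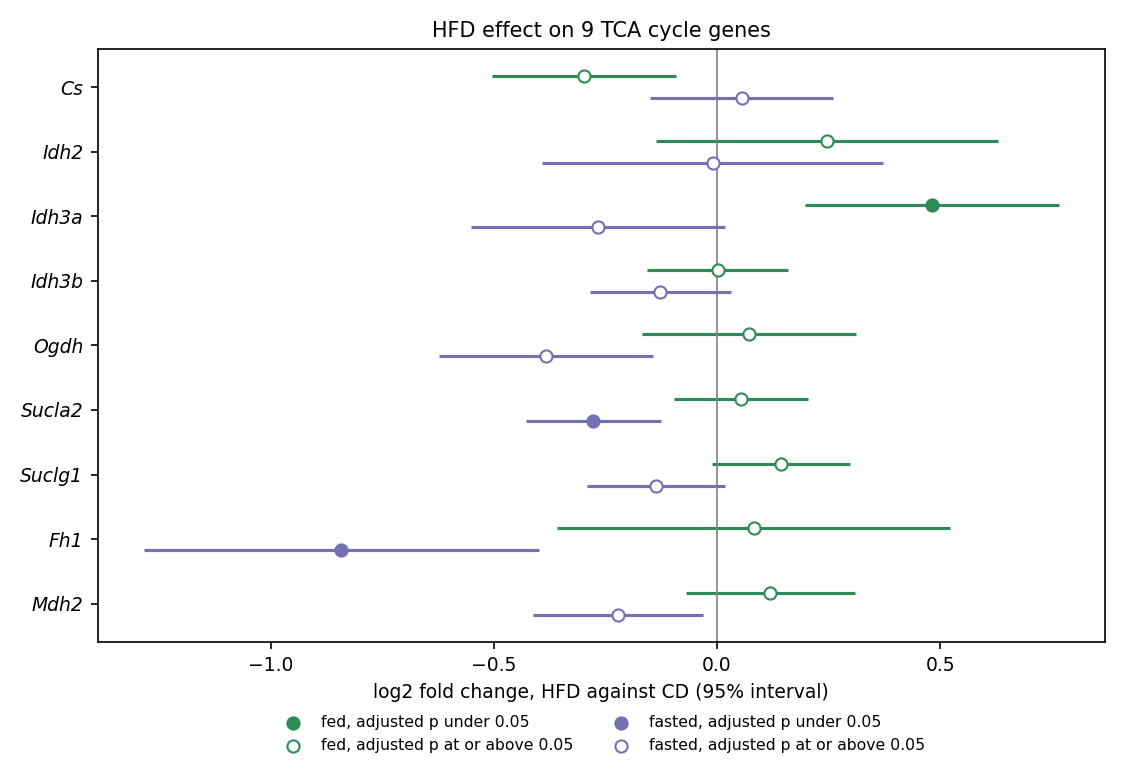
Log2 fold change of HFD against CD livers (horizontal axis, lines are 95% intervals) for the 9 TCA cycle genes in fed (green) and fasted (purple) mice, where filled points have an adjusted p under 0.05. In fed mice Idh3a alone is filled, at 0.48, and in fasted mice Fh1 and Sucla2 are filled, at -0.84 and -0.28.

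Ratios between 2 genes within a library, which scaling hardly touches, were taken as differences of log2 CPM (prior count 2) and compared for 4 pairs over 4 comparisons by an exact two-sided permutation test. With 4 against 4 libraries the smallest p is 0.0286, and the 6 comparisons without overlap all had this exact p, which was 0.0762 after Benjamini-Hochberg adjustment over the 16 tests, so none passed. The log2 ratio of Mdh2 to Cs, the last and first steps of the cycle, was 0.27 ± 0.10 in CD fed and 1.07 ± 0.23 in CD fast (SD, n = 4), a difference of 0.80. In HFD livers it was 0.68 ± 0.17 when fed and 0.80 ± 0.20 when fasted, which overlapped, and the fed HFD livers lay above the fed CD livers by 0.41 without overlap.

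The log2 ratio of Idh3a to Idh3b, subunits of one enzyme, was -2.66 ± 0.10 in CD fed and -2.18 ± 0.18 in HFD fed, without overlap. It was -2.50 ± 0.09 in HFD fast, below HFD fed without overlap, and -2.39 ± 0.28 in CD fast. The ratio of Idh2 to Idh3a, the NADP-dependent against the NAD-dependent enzyme, differed by 0.76 between HFD fast (2.38 ± 0.21) and HFD fed (1.62 ± 0.35), without overlap. The ratio of Sucla2 to Suclg1 was -0.63 ± 0.05 in CD fed and -0.86 ± 0.05 in CD fast, a difference of -0.22 without overlap. With fasting in HFD it went from -0.72 ± 0.15 to -0.997 ± 0.10, a difference of -0.27, with overlap (exact p 0.0571).

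**Figure D4:**
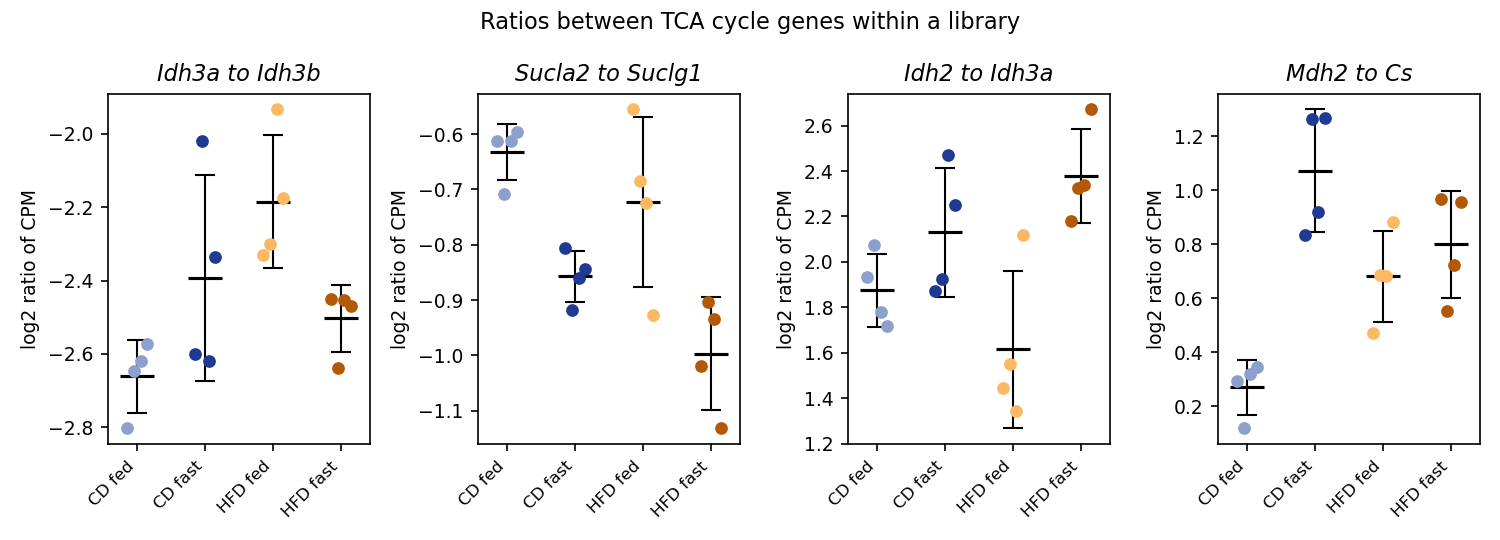
Log2 ratio of CPM between 2 TCA cycle genes (vertical axes) in each of the 16 libraries by group, where points are libraries, the horizontal line is the mean and bars are the SD (n = 4). For Mdh2 to Cs the CD fast libraries lie above the CD fed ones, and for Idh3a to Idh3b the HFD fed libraries lie above the CD fed and the HFD fast ones.

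Over the 16 libraries, the 36 pairs of the 9 genes had a median Pearson r of log2 CPM of 0.44, and 29 of 36 were positive. The highest r was 0.88, between Ogdh and Mdh2. Of the 8 pairs with Cs, 1 was positive and the median was -0.48. After each group's mean was subtracted, 29 of 36 pairs were positive, not all of them the same pairs, with a median r of 0.32, and 4 of the 8 pairs with Cs were positive. All of these values share the same libraries and scaling and are a description only. CD fast replicate 2 held the highest level of its group for 7 of the 9 genes and HFD fast replicate 3 the lowest of its group for 7 of the 9.

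With the mean standardised profile of the 9 genes, Mdh2 (r = 0.94) and Ogdh (0.90) were most alike and Cs (-0.41) least. Each of the 9 is itself part of that mean, which raises its r. Among 10995 other genes with a mean of at least 100 counts, the closest to this profile over the 16 libraries were Tomm40, which encodes the channel of the outer mitochondrial membrane translocase (r = 0.93), Dgat1, an enzyme of triglyceride synthesis (0.92), Psmd9, a chaperone of proteasome assembly (0.91), Slc25a11, the oxoglutarate carrier (0.90), and Gpat4, an enzyme of glycerolipid synthesis (0.89).

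Of the other nuclear genes of the cycle, 8 were examined. They encode the third subunit of the NAD-dependent isocitrate dehydrogenase (Idh3g), the E2 and E3 subunits of the oxoglutarate dehydrogenase complex (Dlst, Dld), the GDP-forming beta subunit (Suclg2) and succinate dehydrogenase (Sdha, Sdhb, Sdhc, Sdhd). With fasting in CD, 3 of these 8 were called, against 25.2% of all genes. Dlst rose by 0.67 (SE 0.10, edgeR adjusted p 0.000378, called in 16 of 16 fits without a library), and Sdhd rose by 0.22 (SE 0.07, adjusted p 0.0361, called in 10 of 16 such fits). Sdha, the flavoprotein subunit of succinate dehydrogenase, fell by 0.33 (adjusted p 0.0260, called in 11 of 16). Idh3g (0.09), Dld (-0.01), Suclg2 (-0.14), Sdhb (-0.15) and Sdhc (0.03) did not pass.

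Fasting in HFD gave no edgeR call among these 8 genes, with 3 at an unadjusted p under 0.05, against 8.86% of all genes called. HFD in fed livers gave 0 calls and 0 at an unadjusted p under 0.05, against 7.5% of all genes called. At such shares 0 calls of 8 do not set these genes apart. In fasted livers 2 of the 8 were called, against 7.7% of all genes. HFD lowered Sdhd by 0.49 (SE 0.07, adjusted p 0.00342, called in 16 of 16 fits without a library) and raised Suclg2 by 0.40 (SE 0.11, adjusted p 0.0359, called in 10 of 16). The interaction was called for 1 of the 8, against 2.59% of all genes, Sdhd (-0.40, SE 0.10, adjusted p 0.0491, in 2 of 16 such fits). Set beside the 9 genes, Sucla2 was lower and Suclg2 higher in fasted HFD livers, and these are the alternative beta subunits of succinyl-CoA synthetase. The Suclg2 libraries overlapped, at 220 to 300 CPM in CD fast and 299 to 405 CPM in HFD fast. Sucla2 was not called there with total count scaling, and the ratio of Sucla2 to Suclg2 was not tested.

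Enzymes that feed the cycle or draw from it moved in both directions with fasting in CD, 5 of 21 higher and 4 lower, against 13.7% and 11.5% of all genes. Acly, which splits exported citrate for fatty acid synthesis, fell by 2.47 (SE 0.20, adjusted p 2.12e-06), Me1, the cytosolic malic enzyme, fell by 1.75 (SE 0.21), and Pcx, which makes oxaloacetate from pyruvate, rose by 0.94 (SE 0.14, adjusted p 0.000250). In HFD livers 6 of these 21 were called with fasting, 3 in each direction, against 8.86% of all genes. Me1 (-1.07) and Acly (-0.98) fell there too, and Pck1, which makes phosphoenolpyruvate from oxaloacetate, fell by 0.86 (SE 0.25, adjusted p 0.0467, called in 6 of 16 fits without a library). Pck1 rose by 0.75 in CD (adjusted p 0.0416, in 9 of 16 such fits). HFD lowered Acly (-1.77), Me1 (-0.72) and Abat (-0.34), 3 of 21, in fed livers, against 7.5% of all genes. In fasted livers 3 of 21 were called, against 7.7% of all genes, with Got1 (-2.01) and Pck1 (-1.49) lower and Me2 (0.86) higher.

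Of 9 mitochondrial carriers of cycle metabolites, 7 were higher and 1 lower with fasting in CD, against 13.7% and 11.5% of all genes. Slc25a22, a glutamate carrier, rose by 1.11 (SE 0.27, adjusted p 0.00820), Slc25a10, the dicarboxylate carrier, rose by 0.75 (SE 0.16, adjusted p 0.00299), and Slc25a1, the citrate carrier, fell by 0.67 (SE 0.12, adjusted p 0.000871). With fasting in HFD 3 of 9 were called (8.86% of all genes), Slc25a10 (0.64) and Mpc1 (0.41) higher and Slc25a1 (-0.46) lower. HFD gave 0 edgeR calls of 9 in fed livers (7.5% of all genes), with 3 at an unadjusted p under 0.05, and 2 of 9 in fasted livers (7.7% of all genes), Slc25a22 (-0.95) and Mpc2 (-0.37), both lower.

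Of 8 regulators of mitochondrial gene expression and deacylases, 3 rose with fasting in CD, against 13.7% of all genes. Ppargc1a, a coactivator of mitochondrial genes, rose by 1.24 (SE 0.39, adjusted p 0.0287, called in 12 of 16 fits without a library), Esrra, a nuclear receptor that works with it, by 0.87 (SE 0.16, adjusted p 0.00117) and Tfam, which binds mitochondrial DNA, by 0.35 (SE 0.07, adjusted p 0.00143). In the 3 other comparisons between groups edgeR called 0 of these 8, with 2 (fasting in HFD), 2 (HFD in fed mice) and 3 (HFD in fasted mice) at an unadjusted p under 0.05, against 8.86%, 7.5% and 7.7% of all genes called. The 4 assembly factors of succinate dehydrogenase gave 1 call in the 4 comparisons between groups, Sdhaf4, lower in fasted HFD livers (-0.39, adjusted p 0.0150), where 7.7% of all genes were called. The 0 calls of 4 in each other comparison stand beside 25.2% (fasting in CD), 8.86% (fasting in HFD) and 7.5% (HFD in fed mice) of all genes. Of the 13 mitochondrially encoded mRNAs 1 was called with fasting in CD, against 25.2% of all genes, namely mt-Nd1 (0.46, adjusted p 0.0423, called in 6 of 16 fits without a library). In fasted HFD livers 2 of the 13 were called, against 7.7% of all genes, mt-Co2 (-2.56) and mt-Nd6 (-1.40), both lower. All 13 had a log2 change below 0 there, with a median of -0.29 against 0.01 over all genes. These 13 values share the same libraries and scaling.

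The promoters of the genes were read for 5 short motifs known for nuclear genes of mitochondrial proteins or for the response to fasting. RefSeq (GRCm38.p6) start sites, with 250 bases before and 50 after, were held for 8 of the 9 genes (not for Idh3a), and both strands were searched. Ogdh had 6 start sites and so 6 windows, partly overlapping, and each of the other 7 genes had 1, while the table held 32851 windows for 27025 genes. The cAMP response element TGACGTCA was in a window of 2 of the 8, Ogdh and Mdh2, and in 2.03% of 27025 genes. The NRF1 element GCGCATGCG was in 1 of the 8, Ogdh, and in 1.95% of genes. The estrogen-related receptor element TNAAGGTCA (1.43% of genes), the ETS element CCGGAAGT bound by GABPA (4.31%) and the YY1 element AAGATGGCG (1.64%) were in none of the 8. In 7 of the other cycle genes with a window, each of these last motifs was found in 1 gene (TNAAGGTCA in Sdhd, CCGGAAGT in Dlst, AAGATGGCG in Idh3g), and the cAMP and NRF1 elements in 0. The matches are shown here with 10 bases on each side, on the strand of the gene, with the motif in capitals. The Mdh2 stretch shown is chr5:135778512-135778539 on the plus strand, and its match overlaps an annotated exon. The first Ogdh stretch is chr11:6291536-6291563 on the plus strand, with its match before the annotated gene, and the second is chr11:6292533-6292561, with its match inside the gene and in no exon.
Mdh2 cAMP response element: gagagaatcgTGACGTCAggcctcgctc
Ogdh cAMP response element: cccaattctgTGACGTCAcgtcacgccc
Ogdh NRF1 element: taggtgttgtGCGCATGCGtaactcaact
A match is a run of letters and not a measured binding site, and no match says only that these letters are not in the window.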

How the data were processed

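Raw read counts per Ensembl gene were deposited by the authors in 1 table with a column per library. Per the labels and the study's methods, polyadenylated RNA was sequenced, reads were demultiplexed with CASAVA (version 1.8.4 in the submitters' processing notes), aligned to GRCm38 (mm10) with TopHat2 2.0.11 and counted with featureCounts. The annotation release is not given in the sources used here. Poly(A) selection can lower mitochondrially encoded transcripts, and gene counts do not resolve isoforms. Symbols were matched for 45143 of 46078 genes, and positions are from GENCODE on GRCm38.

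Counts were tested with edgeR 4.0.16 (R 4.3.3; TMM, filterByExpr, quasi-likelihood F test, 1 fit over all 16 libraries with 12 residual degrees of freedom), with Benjamini-Hochberg adjustment over 15075 genes. The SE was taken from the F statistic and intervals are at 95%. CPM for levels carry no prior count, and log2 CPM for correlations and ratios used a prior count of 2. Ratios were tested by exact permutation (SciPy 1.17.1). Alternatives used DESeq2 1.42.0, limma-voom (limma 3.58.1), other scalings and filters, only the groups compared, a replicate block and leaving out each library. Steps were tested on simulated data. Within-group library pairs were checked for duplicates, and the lowest chi-square per gene was 37.6, so none differed by as little as sampling noise. The study describes livers of mice with n = 4 for RNA-seq and the labels name no animals, so p-values measure the spread between these libraries, which is partly technical if any share an animal.

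The named genes were all 9 members, 8 other genes of the cycle (1 item of this list is not reported here), at most the 3 largest called genes of each further list per comparison, and the 5 genes most like the mean profile. The members and lists were chosen with earlier results of these data known.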

Additional observations from a re-analysis of the deposited data

Results flagged for a closer look

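A library stood apart from the other 3 of its group in 2 of 36 pairs of gene and group, where chance gives about 1 in 20: Idh3a at 22.6 CPM in CD fed replicate 1, the lowest, and Mdh2 at 267 CPM in CD fast replicate 2, the highest.

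The fasting effect differed between CD and HFD by the interaction test of edgeR for 1 of the 9 genes, 1 of 8 other cycle genes, 2 of 21 feeder and side-branch enzymes, 1 of 9 carriers and 1 of 8 regulators, against 2.59% of all genes. It was called for 0 of 4 assembly factors and 0 of 13 mitochondrially encoded mRNAs, with 1 and 0 at an unadjusted p under 0.05. The log2 difference was -0.75 for Idh3a, -0.40 for Sdhd, -1.60 for Pck1 (adjusted p 0.0296), 1.49 for Acly (adjusted p 0.0132), -0.58 for Mpc2 (adjusted p 0.0296) and -0.92 for Esrra (adjusted p 0.0401). Of these, the Acly interaction was called in 16 of 16 fits that left out a library, and those of Pck1, Mpc2 and Esrra in 9, 7 and 6.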

How the results depend on the processing

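Of 477 member values in alternatives other than leaving out a library, 441 kept their direction and their side of the threshold, 12 lost a call, 12 gained one and 12 changed sign. The count of 7 of 9 with fasting in CD was 4 at an adjusted p under 0.01 and 5 to 8 without a library. It was 5 without CD fast replicate 2 (18.7% of all genes called) or CD fed replicate 1 (19.4%). It was 8 without CD fast replicate 1 (21.6%), against 25.2% of all genes called in the main fit. With fasting in HFD the count of 0 was 2 with DESeq2 (13.2% of all genes called) and 1 with total count scaling (8.78%). It was 1 with a mean of at least 100 counts (12.1%) and 1 with only the groups compared (6.95%). It was 0 to 1 without a library, where at least 3.31% of all genes were called, against 8.86% in the main fit. For HFD in fed mice the count of 1 was 0 at an adjusted p under 0.01. It was 2 with DESeq2 (11.7% of all genes called), 0 with no count filter (3.7%) and 0 to 1 without a library (3.37% to 8.29%). For HFD in fasted mice the count of 2 was 0 at an adjusted p under 0.01. It was 3 with DESeq2 (13.0% of all genes called), 3 with RLE size factors (7.92%) and 1 with total count scaling (13.9%). It was 1 with no count filter (3.39%), 0 with only the groups compared (0.623%) and 0 to 3 without a library (3.51% to 8.9%). For the interaction the count of 1 was 0 at an adjusted p under 0.01 and 4 with DESeq2 (7.16% of all genes called). It was 0 with limma-voom (2.37%), total count scaling (2.92%) or no count filter (1.19%), and 0 to 2 without a library (0.963% to 3.01%). Without a library the averaged fasting count was 4 to 5 (23.7% to 29.1% of all genes called) and the averaged HFD count 0 to 1 (8.13% to 11.8%).

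The sign changed only for values not called in either fit. With total count scaling these were Mdh2 with fasting in HFD (0.015), Idh2 (0.16), Idh3b (0.029) and Suclg1 (0.023) with HFD in fasted mice, and Idh3b (0.051), Sucla2 (0.00057) and Mdh2 (0.065) with HFD averaged. With no count filter they were Idh3b with HFD in fed mice (-0.014) and Suclg1 with HFD averaged (-0.0075), and for Idh2 with HFD in fasted mice limma-voom gave 0.0076 and a mean of at least 100 counts 0.020. Without a library, ranges crossing 0 were Mdh2 with fasting in HFD (-0.092 to 0.0078), Idh3b with HFD in fed mice (-0.020 to 0.017), Cs (-0.020 to 0.10) and Idh2 (-0.15 to 0.073) with HFD in fasted mice, Idh3a (-0.12 to 0.0064) and Idh3b (-0.062 to 0.0095) with fasting averaged, Suclg1 with HFD averaged (-0.013 to 0.025) and the Idh3a to Idh3b ratio with HFD in fasted mice (-0.19 to 0.015).

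Total count scaling moved the median log2 change of all genes by 0.11 for HFD averaged. It moved the share of higher genes among those called from 54.4% to 44.3% for the fast in CD, 54.0% to 67.6% for the fast in HFD, 43.8% to 68.8% for the diet in fed mice, 47.4% to 69.5% for the interaction and 41.5% to 84.7% for the diet averaged. Causes were not tested.

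The labels number the libraries 1 to 4 in each group without a stated pairing. Deviations of same-numbered libraries had r of -0.24 to 0.66 (median 0.06), against -0.37 to 0.39 for different numbers. Same-numbered fed and fasted libraries of one diet all had a positive r, from 0.05 to 0.66. The highest was between HFD fed and HFD fast replicate 4, which also had r of 0.39 and 0.36 with CD fed replicate 1. Not every same-numbered pair correlated above 0.1. The numbers are only names in the labels, so the main fit did not treat the libraries as paired. With the replicate block, the counts for the fast were 7 in CD and 0 in HFD, against 26.2% and 9.55% of all genes. They were 2 in fed and 2 in fasted mice for the diet (8.01% and 8.56%), and 0 for the interaction (2.38%). The block gave Cs with HFD in fed mice (adjusted p 0.0378), lost the Idh3a interaction (0.0513) and put the log2 change of Idh2 with HFD in fasted mice at 0.0031.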
